A study of Mus musculus with 10 samples.

Results

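The comparison described here is that of the ventricles of TM180 mice with the ventricles of nontransgenic mice (NTG), and its members are the arrays with these labels: 4 alpha-TM180 arrays and 3 NTG arrays, 7 of the 10 arrays of the series. The other 3 arrays carried RNA of alpha-TM175 ventricles, a line known from background as the milder model. TM180 arrays 1, 2 and 3 and NTG arrays 1 and 2 each carried RNA of 1 heart, whereas TM180 array 4 and NTG array 3 each carried an extract pooled from 20 hearts. The labels do not say whether the single hearts are also in the pool of their group, so the pools may not be independent of them. In single hearts only, 44 probe sets passed the test below, against 454 with the pools. No treatment was given, and the series as a whole was designed to compare a mild with a severe form of hypertrophy while it develops. From background knowledge of these lines, both carry an alpha-tropomyosin transgene with a mutation of human familial hypertrophic cardiomyopathy, driven by the cardiac alpha-myosin heavy chain promoter, so the transgene is made in heart muscle cells, and it is not known from the labels whether each line stems from 1 founder. Age, sex and strain are not given in the sources used here. Each value given is the linear intensity of a probe set, a group of probes that reads 1 stretch of a transcript. Intensities of different probe sets are not compared with each other, and each list below follows array order, with the pool last.

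Tropomyosin lies along the actin filament and, moved by troponin when calcium binds, uncovers the sites to which myosin heads attach. Mutations that make the filament more sensitive to calcium are a known cause of hypertrophic cardiomyopathy, in which the ventricular wall thickens, interstitial collagen accumulates and genes of the fetal heart, among them the natriuretic peptides and beta-myosin heavy chain, are used again. The adult mouse ventricle otherwise relies on alpha-myosin heavy chain and draws most of its energy from fatty acids.

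Tpm1, the gene that encodes alpha-tropomyosin, had intensities of 16828, 16460, 17346 and 15587 in TM180 arrays, against 12400, 13205 and 11241 in NTG arrays. All 4 TM180 arrays lay above the NTG arrays, and the difference was 0.42 ± 0.08 on the log2 scale (SE), 1.34-fold with an adjusted p of 0.0169 in limma; the probe set reads transgene and endogenous transcripts together as far as the sequence they share. The 2 other, far dimmer probe sets of Tpm1 overlapped between groups and were not called, at 0.34 (adjusted p 0.405) and -0.10 (adjusted p 0.844). The called set was the brightest of all tested, and whether a difference is understated at such intensities was not tested. Its call was lost with repeated quantile normalization (0.30, limma adjusted p 0.0574) and with no extract type in the model (0.43, limma adjusted p 0.065). Median intensities ran from 66.6 to 71.0 over the 10 arrays, and the correlation of log2 intensities between arrays was 0.964 at the lowest and 0.995 at the highest. The first principal component, with 47.4% of the variance, set the 3 pooled extracts apart from the single hearts, and extract type was therefore kept in the model, as the comparison was defined. The sex-linked Xist transcript read 105, 99.5, 111 and 394 in TM180 arrays, against 99.9, 136 and 149 in NTG arrays, so it was high in the TM180 pool. Eif2s3y, from the Y chromosome, read 51.5, 44.7, 60.8 and 35.3 in TM180 arrays, against 55.3, 46.1 and 46.7 in NTG arrays. A second Xist probe set read 290 in the TM180 pool and 63.0 in the NTG pool. In TM175 arrays the first Xist set read 988, 130 and 414, and Eif2s3y read 7.23, 52.5 and 38.3. Sex may thus differ between the pools and among the TM175 arrays, and its part in the results was not tested.

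Among the genes that passed the test below, more were higher than lower in ventricles of TM180 mice, relative to those of NTG mice. The higher ones included Nppa, Myh7 and genes for collagens, other matrix proteins and the cytoskeleton, and the lower ones included some for lipid and mitochondrial metabolism and antigen presentation. Of 22626 probe sets, 454 passed an adjusted p under 0.05, which is 2.01%, and these are named called below. There were 332 higher (1.47%) and 122 lower (0.539%) in TM180 than in NTG hearts. They named 261 genes that were higher and 96 that were lower, with Coro1c, an actin-binding protein chosen here after its values were seen, in both lists through different probe sets. At least 2-fold differences made up 50 of the higher and 19 of the lower probe sets, and the median difference was 0.66 among the higher and -0.69 among the lower ones, against -0.0045 over all genes. In 428 of the 454 called probe sets no TM180 array overlapped an NTG array; over all probe sets this held for 2302, or 10.2%. All 454 had the same sign between single hearts as between the 2 pools, with medians of 0.656 in single hearts and 0.655 in pools among the higher probe sets and of -0.662 and -0.727 among the lower ones. The calls came from a fit to single hearts and pools together. The choice of probe sets therefore favoured this likeness, and it is no independent check. Of the 356 called genes, 240 were on none of the 57 gene lists used here, 176 of them higher and 64 lower, and 52 were called in every one of 10 fits that left out 1 array each. A call belongs to a probe set: of 127 called genes described with values here, 73 had further probe sets, 115 in all, of which 39 were called. A brighter set was not called in 15 of these genes, and a further set had the opposite sign, without a call, in 8; each is given beside its gene.

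**Figure D1:**
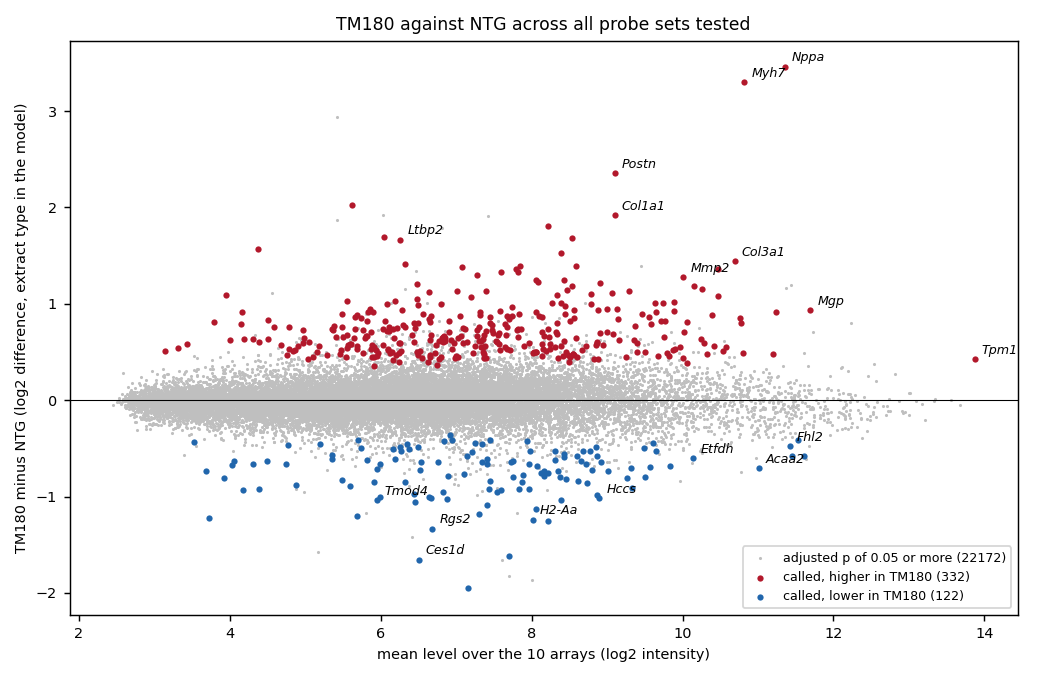
Each point is 1 of 22626 probe sets, with its mean level over the 10 arrays (log2 intensity) on the x axis and the difference of TM180 minus NTG (log2, extract type in the model) on the y axis; red points were called higher (332), blue points lower (122). Nppa and Myh7 stand above 3, Postn and Col1a1 near 2, and Ces1d, the lowest labelled gene, at -1.66.

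For the 2 largest rises, Nppa and Myh7, and the 2 largest falls with an entry in RefSeq's promoter table (GRCm38.p6), Rgs2 and H2-Aa, the 140 bases before the transcript start are shown, 5′ to 3′ on the strand of the gene. Capitals mark motif letters found by search on either strand.
Nppa, chr4:148000582-148000721, + strand: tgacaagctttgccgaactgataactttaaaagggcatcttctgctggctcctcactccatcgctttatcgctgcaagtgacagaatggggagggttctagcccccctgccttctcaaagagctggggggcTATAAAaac
Myh7, chr14:54994627-54994766, - strand: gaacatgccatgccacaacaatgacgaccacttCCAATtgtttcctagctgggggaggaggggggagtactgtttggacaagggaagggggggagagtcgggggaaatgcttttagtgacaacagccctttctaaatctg
Rgs2, chr1:144004150-144004289, - strand: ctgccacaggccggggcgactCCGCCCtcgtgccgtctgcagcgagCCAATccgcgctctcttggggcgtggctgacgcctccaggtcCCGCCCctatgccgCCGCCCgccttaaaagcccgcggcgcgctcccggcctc
H2-Aa, chr17:34287824-34287963, - strand: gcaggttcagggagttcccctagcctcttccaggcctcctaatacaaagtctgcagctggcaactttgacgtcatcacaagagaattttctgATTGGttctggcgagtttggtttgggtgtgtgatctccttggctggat
The search covered 250 bases before the start and 7 motifs: the TATA box, with the letters TATAAA, the GC box, spelled GGGCGG, the muscle element M-CAT, with CATTCC, the binding motif of GATA factors, as AGATAA, the CCAAT box, the AP-1 motif, with TGANTCA, and the CArG box, with overlaps between motifs kept. Nppa holds a TATA box whose first base lies 9 bases before the RefSeq start. Of the 2 starts listed for Myh7 the upstream one is shown, with a CCAAT box at 107. Rgs2 holds 3 GC boxes, at 119, 52 and 38, and a CCAAT box at 94. H2-Aa holds a CCAAT box on the opposite strand at 48, which in genes of MHC class II is known as the Y box. A TATA box was in 12.4% of all 32851 windows, 11.8% of the 255 windows of genes called higher and 7.22% of the 97 windows of genes called lower; for the GC box the shares were 32.7%, 56.1% and 45.4%, and for CCAAT 33.8%, 32.9% and 38.1%. Genes measured on the array as a whole had a TATA box in 8.81%, a GC box in 51.3% and CCAAT in 34.7% of 12566 windows. For measured genes, genes called higher and genes called lower, the M-CAT shares were 11.4%, 14.1% and 13.4%. In the same order, GATA had 7.12%, 3.92% and 7.22%, and AP-1 had 5.67%, 5.49% and 10.3%. The CArG box had 1.34%, 1.57% and 4.12%. Differences between these shares were not tested.

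The largest rises were those of Nppa, which encodes atrial natriuretic peptide, and Myh7, the beta-myosin heavy chain. Nppa read 5991, 8703, 9127 and 7788 in TM180 arrays, against 906, 635 and 655 in NTG arrays. Each TM180 array lay far above all 3 NTG arrays, at 7902 ± 1391 in TM180 arrays (SD, n = 4) on average against 732 ± 151 in NTG arrays (SD, n = 3), a difference of 3.46 ± 0.58 on the log2 scale (SE; limma adjusted p 0.0116). With single hearts only the call of Nppa was lost at a difference of 3.36 (adjusted p 0.149), as it was with an intensity trend and robust fitting (adjusted p 0.11). It was also lost with replicate number as a block (limma adjusted p 0.119). With only the TM180 and NTG arrays in the fit the limma adjusted p of Nppa was 3.23e-05, and without TM175 array 1 it was 7.92e-06. Myh7 read 2577, 3922, 3086 and 3813 in TM180 arrays, against 342, 349.8 and 325 in NTG arrays, again without overlap, and was 9.85-fold higher (95% interval 6.79 to 14.3, adjusted p 0.000157). The alpha-myosin heavy chain gene Myh6, its adult counterpart, was not called, with 8015, 7564, 8238 and 6868 in TM180 arrays, against 8104, 9210 and 7811 in NTG arrays (log2 difference -0.14 ± 0.09).

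Of 19 measured genes of the fetal and stretch programme 3 were called higher and 1 lower, and 16 lay above 0, with a median difference of 0.74; over all 12393 genes, read by their brightest probe set, 1.73% were called higher and 0.589% lower. The third rise was Uchl1, a ubiquitin hydrolase, with 94.3, 103, 78.2 and 80.5 in TM180 arrays, against 53.7, 53.5 and 42.4 in NTG arrays. Enah, an actin regulator of the intercalated disc, passed with a less bright probe set at 1.76-fold (adjusted p 0.0374), the brighter one lying at 0.71 (adjusted p 0.0583). Fhl2, a LIM protein of the sarcomere, was the member that fell, to 2784, 2198, 2426 and 2402 in TM180 arrays against 3361, 3402 and 3386 in NTG arrays. Nppb, which encodes brain natriuretic peptide, and Acta1, skeletal alpha-actin, did not overlap between groups and were still not called. Nppb read 2474, 5921, 3856 and 4625 in TM180 arrays, against 2210, 1328 and 2099 in NTG arrays (1.16 ± 0.41, adjusted p 0.206), and Acta1 read 3545, 6993, 3844 and 4249 in TM180 arrays, against 2162, 1562 and 2356 in NTG arrays (1.19 ± 0.45, adjusted p 0.228). In both genes TM180 array 2 was the highest. The spread in the fit is also estimated from the TM175 arrays, where Acta1 read 733, 4024 and 2857. Acta1 was called in 1 of 10 fits that left out 1 array (lowest limma adjusted p 0.025). Over these fits the fetal and stretch list had 1 to 7 genes called higher.

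Most genes of the contractile and calcium apparatus were not called. Among 16 thick and thin filament genes Tpm1 was the one called higher and Tmod4, a tropomodulin of skeletal muscle that caps thin filaments, the one called lower. Tmod4 read 57.1, 48.0, 55.1 and 40.5 in TM180 arrays, against 127, 93.0 and 89.0 in NTG arrays, 2.06-fold lower. Casq1, the calsequestrin of fast skeletal muscle, was called at 1.75-fold higher, with 1258, 1991, 1297 and 1349 in TM180 arrays, against 914, 794 and 766 in NTG arrays. The calcium pump gene Atp2a2 averaged 1702 ± 133 in TM180 arrays (SD, n = 4) against 2021 ± 65.9 in NTG arrays (SD, n = 3) (adjusted p 0.188), and Pln, its inhibitor phospholamban, 5816 ± 417 in TM180 arrays (SD, n = 4) against 6094 ± 457 in NTG arrays (SD, n = 3) (adjusted p 0.799). Of the 12 cardiomyocyte markers limma called none (3 at an unadjusted p under 0.05), and their summed intensity ran from 69403 to 77339 in TM180 arrays and from 75000 to 82259 in NTG arrays. Hopx, a homeodomain cofactor, fell to 2995, 2312, 2591 and 2660 in TM180 arrays against 4092, 3554 and 4138 in NTG arrays.

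Atrial muscle markers differed between the TM180 arrays and are given here because Nppa is also an atrial gene. Of the 7 measured atrial markers 2 were called, Nppa and Dkk3. Sln, sarcolipin, read 65.5, 35.5, 461 and 347 in TM180 arrays, against 46.3, 36.9 and 32.9 in NTG arrays in the more responsive of its 2 probe sets. Myl7, the atrial regulatory light chain, read 89.3, 34.2, 455 and 337 in TM180 arrays, against 151, 39.8 and 37.2 in NTG arrays, and Myl4, the atrial essential light chain, 148, 50.9, 784 and 582 in TM180 arrays, against 169.7, 48.2 and 46.4 in NTG arrays. All 3 were high in TM180 heart 3 and in the TM180 pool. TM180 heart 2 lay near NTG arrays 2 and 3. For Myl7 and Myl4, TM180 heart 1 and NTG array 1 lay above those arrays. Nppa read 5991 and 8703 in TM180 hearts 1 and 2. The other probe set of Sln and that of Myl4 showed no such pattern, with differences of -0.02 and -0.05. Without TM180 array 3 the difference in Nppa was 3.36 on the log2 scale (adjusted p 0.0286). The summed intensity of the 7 atrial markers, which includes Nppa, was 6445 to 9987 in TM180 and 1023 to 1387 in NTG arrays. The part of atrial tissue in Nppa and in other results was not tested. Of the 9 contractile and fetal genes named as called, Myh7 and Tmod4 were called in all 10 fits that left out 1 array. The fits missed 1 without TM175 array 2 (adjusted p 0.0568), 2 without TM175 array 3 (0.0524 to 0.0556), 4 without TM180 array 2 (0.0574 to 0.133), 3 without TM180 array 3 (0.0593 to 0.0897), 7 without TM180 array 4 (0.0562 to 0.136), 3 without NTG array 1 (0.056 to 0.114), 6 without NTG array 2 (0.0521 to 0.125) and 7 without NTG array 3 (0.0934 to 0.265).

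**Figure D2:**
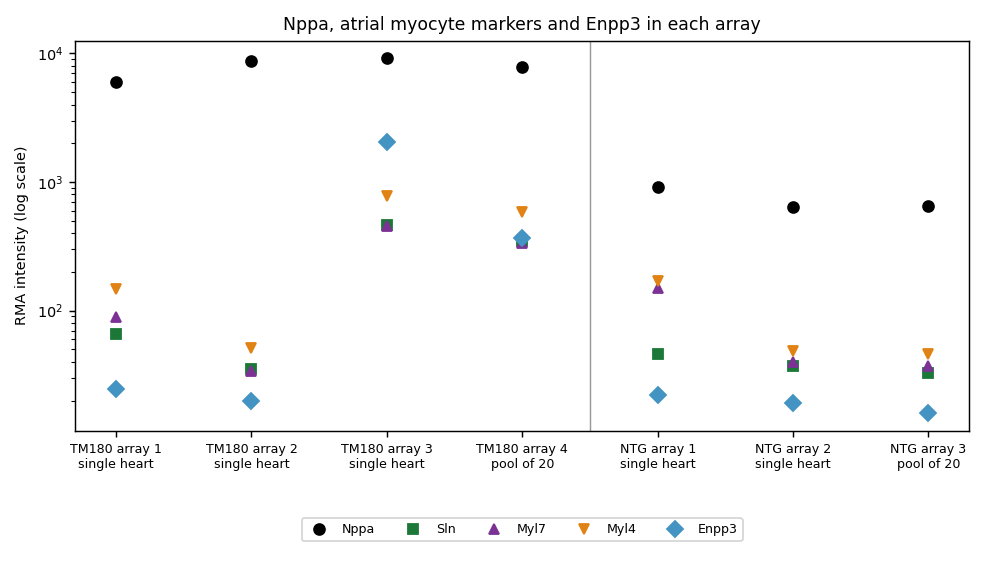
Intensity (log scale, y axis) of Nppa, of the atrial markers Sln, Myl7 and Myl4 and of Enpp3 in each TM180 array (left of the line) and each NTG array (right of it). Nppa is high in all 4 TM180 arrays, while the other 4 genes are high in TM180 array 3 and in the TM180 pool.

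The matrix genes formed the most complete group. Of 7 fibrillar collagen genes 5 were called higher (Col1a1, Col1a2, Col3a1, Col5a1 and Col5a2) and all 7 lay above 0, with a median of 1.18 on the log2 scale; of 14 other collagens 9 were called and all lay above 0, with a median of 0.78. Col1a1, which encodes a chain of type I collagen, read 768, 1289, 873 and 1079 in TM180 arrays, against 266, 203 and 349 in NTG arrays. It was 3.79-fold higher (95% interval 2.85 to 5.04, adjusted p 0.000661). Col3a1, type III collagen, read 1763, 2804, 2813 and 2977 in TM180 arrays, against 945, 694 and 1377 in NTG arrays, and here the lowest TM180 array and the highest NTG array, the NTG pool, came close without overlapping. Its ratio was 2.72 (95% interval 2.07 to 3.56, adjusted p 0.00248). Col1a2 (2.27-fold) and Col5a2 (2.34-fold) followed. Among collagens outside the fibrils, Col15a1, of the zone under basement membranes, was 2.32-fold higher and Col6a1, a chain of the microfibrillar type VI collagen, 2.19-fold.

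Matricellular proteins, which modulate how cells meet the matrix, had 7 of 15 genes called higher, none lower and a median of 0.57. Postn, periostin, made by activated cardiac fibroblasts, had the smallest adjusted p among the named genes. It read 759.5, 1207, 1110 and 1108 in TM180 arrays, against 218, 173 and 227 in NTG arrays, 5.12-fold higher (95% interval 4.09 to 6.41, adjusted p 4.66e-05). Fstl1, a secreted follistatin-related glycoprotein, read 474, 656, 639 and 549.7 in TM180 arrays, against 264, 191 and 211 in NTG arrays. Thbs4, thrombospondin 4, was 2.61-fold and Sparc, a collagen-binding protein, 1.89-fold higher. A dimmer probe set of Sparc overlapped between groups and was not called (0.61, limma adjusted p 0.133). Elastic fibre and microfibril genes had 7 of 14 called higher and 1 lower. Ltbp2, a microfibril-associated protein related to the binding proteins of latent TGF-beta, read 111, 155, 164 and 103 in TM180 arrays, against 40.2, 48.0 and 34.1 in NTG arrays, a 3.17-fold difference. Mfap5, a microfibril glycoprotein, was 2.87-fold and Mfap4 2.46-fold higher. The member that fell was Efemp1, a fibulin, by 0.80 on the log2 scale. Mgp, matrix Gla protein, an inhibitor of calcification, was among the 10 brightest called genes with 4199, 4720, 4270 and 4485 in TM180 arrays, against 2534, 2199 and 2241 in NTG arrays.

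The markers of fibroblasts moved with these groups. Of 15 measured markers 8 were called higher and all 15 lay above 0, and their summed intensity was 11094 to 16006 in TM180 and 6530 to 9467 in NTG arrays. The 8 include matrix genes already counted above, among them Col1a1, Col1a2, Col3a1 and Mfap5. The defining markers Pdgfra (185, 208, 259 and 236 in TM180 arrays, against 167, 159 and 198 in NTG arrays), Tcf21 (184, 167, 149 and 224 in TM180 arrays, against 161, 107 and 169 in NTG arrays) and Ddr2 (175, 157, 171 and 308 in TM180 arrays, against 159, 164 and 265 in NTG arrays) were not called. In extracts of whole ventricle a larger share of a cell type and more RNA per cell cannot be told apart, and the part of fibroblast number was not tested. Of the 15 matrix genes named with their own values, 13 were called in all 10 fits that left out 1 array. The call was lost for 1 without TM180 array 2 (adjusted p 0.0511), 2 without TM180 array 4 (0.0826 to 0.084), 2 without NTG array 1 (0.056 to 0.0602), 2 without NTG array 2 (0.0756 to 0.0776) and 1 without NTG array 3 (0.141). The genes concerned were Thbs4 and Efemp1. Over these fits the fibrillar collagens had 5 or 6 called genes, the other collagens 4 to 10 (4 without NTG array 2 or 3, 5 without TM180 array 4) and the matricellular genes 3 to 8 (3 without NTG array 3, 4 without TM180 array 4, NTG array 1 or NTG array 2).

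**Figure D3:**
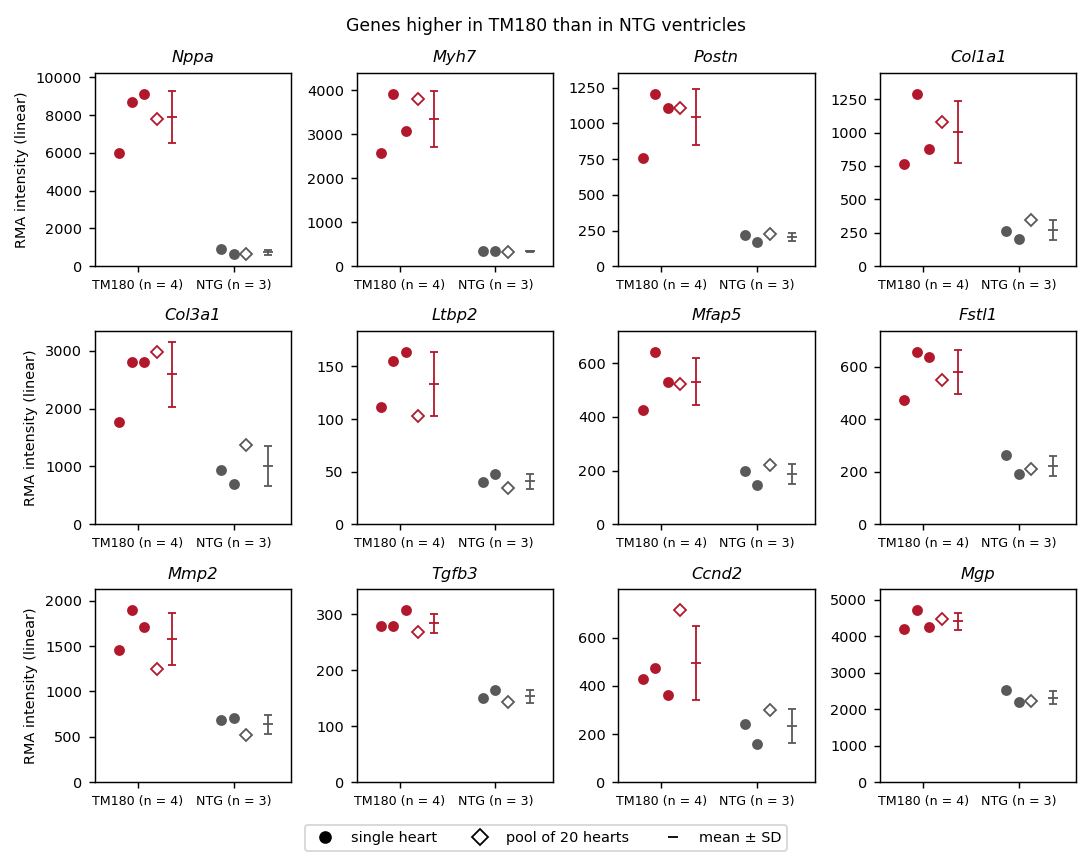
Linear intensity (y axis, from 0) of 12 genes called higher, in TM180 arrays (red, n = 4) and NTG arrays (grey, n = 3); circles are single hearts, open diamonds the pools of 20 hearts and dashes with bars the mean ± SD. In no panel do the groups overlap, and the pools lie on the same side as the single hearts. Both follow in part from the choice of called genes, and the rule for the largest rises required no overlap.

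Genes for proteoglycans, crosslinking enzymes, matrix proteases and matrix receptors rose in part. Of 17 genes of proteoglycans and hyaluronan 5 were called higher; Bgn, biglycan, read 1773, 2184, 1866 and 2047 in TM180 arrays, against 841, 1008 and 946 in NTG arrays, 2.12-fold higher, followed by Vcan, versican (2.04-fold), Prelp (1.67-fold) and Lum, lumican (1.64-fold, adjusted p 0.049). Of 14 genes that fold and crosslink collagen 3 were called: Loxl1 (2.01-fold) and Lox (1.40-fold), which crosslink collagen and elastin, and Pcolce, which enhances procollagen cleavage (1.86-fold). A much dimmer probe set of Lox had the opposite sign without overlap between groups (-0.42, adjusted p 0.0672), and the other one was not called (0.18, adjusted p 0.622). Of 19 proteases and inhibitors 5 were called higher. Mmp2, the gelatinase that cleaves denatured and basement membrane collagen, read 1461, 1895, 1705 and 1250 in TM180 arrays, against 689, 706 and 519 in NTG arrays, 2.42-fold higher without overlap. Timp1, an inhibitor of these proteases, rose too, to 89.9, 177, 146 and 134 in TM180 arrays against 70.1, 67.3 and 55.7 in NTG arrays. Ctsk, cathepsin K, was 1.65-fold and Mmp23 1.52-fold higher. Fn1, fibronectin, read 426, 544, 431 and 429.5 in TM180 arrays, against 235, 274 and 269 in NTG arrays, with TM180 array 2 above the other 3, which lay within 426 to 431. The list of laminins, fibronectin and integrins had 4 of 18 genes called higher, the others being Itga9, Itgav and Itgbl1. Itgav, the alpha-V integrin, rose by 0.49 on the log2 scale. Of the 13 genes with values in this paragraph, Bgn, Fn1, Mmp2 and Mmp23 were called in all 10 fits that left out 1 array. Calls missing were 1 without TM175 array 1 (adjusted p 0.0524), 2 without TM175 array 2 (0.0613 to 0.0614), 2 without TM175 array 3 (0.0595 to 0.0688), 2 without TM180 array 1 (0.0539 to 0.0813), 5 without TM180 array 2 (0.0511 to 0.121), 3 without TM180 array 3 (0.078 to 0.0947), 7 without TM180 array 4 (0.0591 to 0.2), 4 without NTG array 1 (0.0578 to 0.118), 6 without NTG array 2 (0.0521 to 0.149) and 9 without NTG array 3 (0.0533 to 0.241).

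Secreted signals with higher transcript levels included TGF-beta ligands and IGF-binding proteins. Of 19 TGF-beta family genes 2 were called, both ligands, and the list median was 0.04, with 12 genes above 0 and 7 below. Tgfb3 read 279.7, 279, 308 and 269 in TM180 arrays, against 151, 166 and 144 in NTG arrays, close within each group, and was 1.84-fold higher (95% interval 1.62 to 2.08, adjusted p 0.000628). Tgfb2 was called in 3 probe sets. The brightest read 83.6, 128, 84.8 and 380.1 in TM180 arrays, against 59.6, 61.1 and 82.8 in NTG arrays, with the TM180 pool far above the single hearts, and the set with the largest difference read 64.8, 110.3, 96.7 and 150.4 in TM180 arrays, against 22.5, 23.1 and 31.6 in NTG arrays, 4.06-fold higher (adjusted p 0.000842). Ccn2, connective tissue growth factor and a target of TGF-beta, did not overlap between groups but was not called, at 820, 1515, 793 and 1467 in TM180 arrays, against 474, 266 and 627 in NTG arrays (1.40 ± 0.38, adjusted p 0.0946). Of 25 growth factors and receptors 4 were called higher: Igf1, insulin-like growth factor 1, at 1.64-fold, and the binding proteins Igfbp7 (1.74-fold), Igfbp6 (1.67-fold) and Igfbp4 (1.56-fold). The median of that list was 0.06, with 15 genes above 0 and 10 below. A dimmer probe set of Igfbp7 lay at -0.03 (adjusted p 0.931). Dimmer sets of Igf1 were not called, at 0.26 and 0.32 (limma adjusted p 0.271 and 0.266).

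Within the Wnt pathway, with a list median of 0.03, 12 genes above 0 and 5 below, 3 of 17 genes were called higher. They were the secreted antagonist Frzb (96.3, 132, 133 and 103 in TM180 arrays, against 67.9, 69.9 and 59.6 in NTG arrays), the Dickkopf family member Dkk3 (1.67-fold, with TM180 array 3 above the others) and the receptor Fzd2 (0.59 on the log2 scale). Of the regulators of G-protein signalling and protein kinase A, Grk5, a receptor kinase, rose to 138, 163, 136 and 188 in TM180 arrays against 93.5, 86.3 and 84.7 in NTG arrays. Adcy7, an adenylyl cyclase on none of the lists, was 2.19-fold higher. Egr1 was the immediate early factor called, of 18, with 211, 274, 230.4 and 311 in TM180 arrays, against 149, 154 and 156 in NTG arrays. Of 21 cell cycle genes Ccnd2, cyclin D2, was called, with 429, 474, 362 and 714 in TM180 arrays, against 241, 161 and 301 in NTG arrays. The pools were the highest array of each group for Ccnd2, and the difference was 2.21-fold. Of the 7 probe sets of Ccnd2, 2 were called. Of the 13 signalling genes called in this and the preceding paragraph, with the brightest probe set for Tgfb2, Tgfb3, Igfbp4, Grk5 and Ccnd2 were called in all 10 fits that left out 1 array. The fits missed 1 without TM175 array 2 (adjusted p 0.0533), 1 without TM175 array 3 (0.0547), 1 without TM180 array 2 (0.0961), 7 without TM180 array 4 (0.0527 to 0.0961), 1 without NTG array 1 (0.0513), 5 without NTG array 2 (0.0527 to 0.0778) and 9 without NTG array 3 (0.053 to 0.187).

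Of 27 cytoskeletal genes 9 were called higher and none lower, with a median of 0.42; the count was 3 without TM180 array 2, 2 without TM180 array 4, 2 without NTG array 2 and 1 without NTG array 3. Dpysl3, a dihydropyrimidinase-like protein that binds tubulin and actin, read 419, 564, 479.6 and 539.8 in TM180 arrays, against 199.6, 219 and 219 in NTG arrays, 2.37-fold higher (adjusted p 0.000628). Dimmer probe sets of Dpysl3 were not called, at 0.20 and 0.39 (limma adjusted p 0.339 and 0.332). Tubb2a, a beta-tubulin, was 2.19-fold and the membrane-binding annexins Anxa1 and Anxa2 were 1.58-fold and 1.57-fold higher. Several of the largest rises belonged to no pathway list. Prg4, lubricin, the lubricating glycoprotein of joints, read 101, 126, 179.7 and 128 in TM180 arrays, against 56.3, 47.2 and 44.4 in NTG arrays. Gask1b, a Golgi-associated protein, read 263, 482, 291 and 465 in TM180 arrays, against 151, 104 and 186 in NTG arrays, with TM180 array 2 and the pool above the other pair. Pi16, a secreted protein on the list of fibroblast markers, was 2.57-fold higher, Fgl2, a fibrinogen-like protein with prothrombinase activity, 2.30-fold, and Meox1, a homeobox factor, 2.13-fold. Among 21 antioxidant genes 3 were called, all higher: Gpx3, the extracellular glutathione peroxidase (2114, 2396, 2467 and 2398 in TM180 arrays, against 1404, 1197 and 1306 in NTG arrays), Mt2, a metallothionein (1.79-fold), and Hmox1, heme oxygenase (1.37-fold). In limma none of 16 heat shock chaperones and none of 18 genes of ER folding and the unfolded protein response was called (2 and 4 at an unadjusted p under 0.05). Of the 12 called genes of this paragraph, Dpysl3, Pi16 and Fgl2 were called in all 10 fits that left out 1 array. The call was lost for 1 without TM175 array 1 (adjusted p 0.0504), 2 without TM175 array 2 (0.0548 to 0.0578), 1 without TM175 array 3 (0.0588), 2 without TM180 array 1 (0.0544 to 0.0545), 3 without TM180 array 2 (0.0505 to 0.126), 1 without TM180 array 3 (0.0559), 5 without TM180 array 4 (0.0564 to 0.185), 1 without NTG array 1 (0.0745), 4 without NTG array 2 (0.0642 to 0.145) and 9 without NTG array 3 (0.0506 to 0.217).

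Cell surface receptors also stood among the rises outside the lists; these 6 were chosen after their values were seen. Lpar1, a receptor of lysophosphatidic acid, read 131, 117, 129.9 and 124 in TM180 arrays, against 75.5, 72.4 and 62.9 in NTG arrays. F2r, the thrombin receptor, read 443, 511, 472 and 578 in TM180 arrays, against 259, 259.8 and 340.4 in NTG arrays. Neither overlapped between groups, and the folds were 1.79 and 1.80. Antxr1, which binds collagen, rose by 0.87, Tlr4, the receptor of bacterial lipopolysaccharide, by 0.76, Osmr, the oncostatin M receptor, by 0.65 and Ptger4, a prostaglandin E2 receptor, by 0.64 on the log2 scale. Brighter probe sets of Lpar1 (0.36, adjusted p 0.168) and Tlr4 (0.17, adjusted p 0.474) were not called, and dimmer ones of Antxr1 (-0.06, adjusted p 0.836) and Osmr (-0.06, adjusted p 0.907) lay below 0. Of the 6 receptors, Lpar1 and F2r were called in all 10 fits that left out 1 array. Calls missing were 1 without TM175 array 3 (adjusted p 0.0592), 3 without TM180 array 2 (0.0592 to 0.112), 3 without TM180 array 3 (0.0586 to 0.0797), 4 without TM180 array 4 (0.0564 to 0.184), 3 without NTG array 1 (0.0533 to 0.0751), 3 without NTG array 2 (0.0731 to 0.0968) and 4 without NTG array 3 (0.0753 to 0.236).

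**Figure D4:**
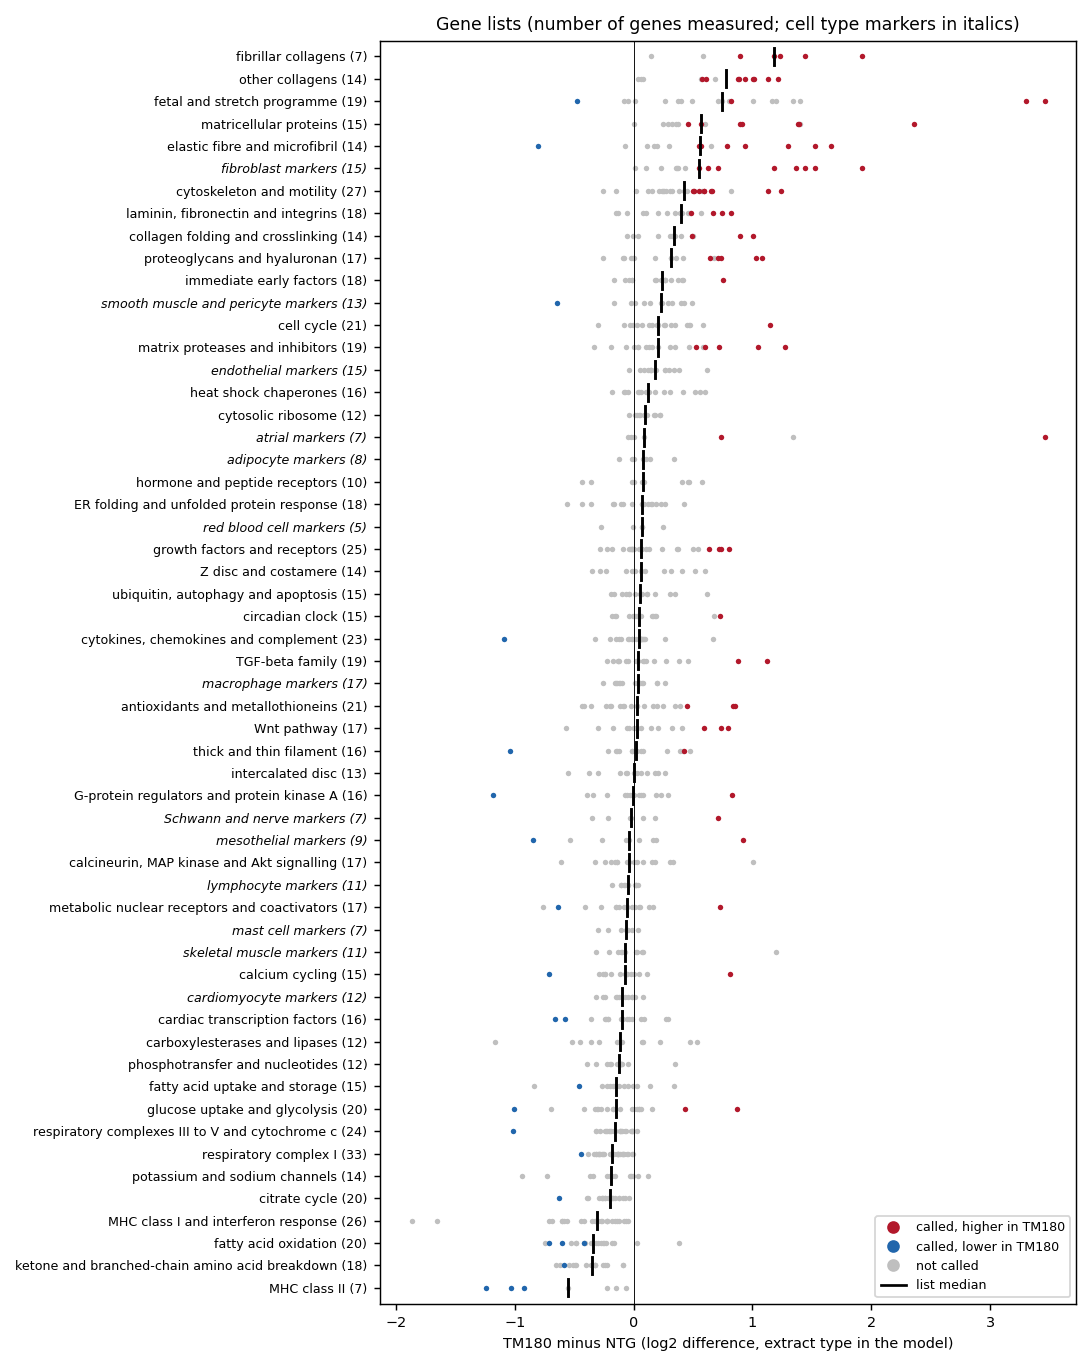
Difference of TM180 minus NTG (log2, x axis) for the brightest probe set of every measured gene on 56 lists (rows, with the number of genes; italics are cell type markers), ordered by list median (black bars); red points were called higher and blue points lower. Fibrillar collagens have the highest median, 1.18, and MHC class II the lowest, -0.55.

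Some genes for the breakdown of fatty acids were lower in TM180 ventricles, by less than 2-fold for each named enzyme of the oxidation list. Of 20 fatty acid oxidation genes 3 were called lower and none higher, 18 lay below 0 and the median was -0.34. Acaa2, the thiolase that closes a round of mitochondrial beta-oxidation, read 2345, 1464, 1760 and 1539 in TM180 arrays, against 3188, 2620 and 2715 in NTG arrays. Etfdh, which hands electrons from flavoproteins to ubiquinone, read 1063, 884, 989 and 1144 in TM180 arrays, against 1603, 1347 and 1752 in NTG arrays. Acadm, the medium-chain acyl-CoA dehydrogenase, read 2962, 2438, 2788 and 2673 in TM180 arrays, against 3649, 3581 and 3577 in NTG arrays, an NTG range of 3577 to 3649 that all TM180 arrays stayed below. Their levels were 1.63-fold, 1.52-fold and 1.34-fold lower in TM180 hearts. Decr1, needed for unsaturated fatty acids, passed with another probe set (1.65-fold lower), while its brighter set did not (-0.53, adjusted p 0.119). On the side of uptake and storage, Lpl, lipoprotein lipase, fell to 2714, 1991, 2411 and 2504 in TM180 arrays against 3843, 3297 and 3563 in NTG arrays, and Dgat2, which makes triglyceride, fell to 582, 324, 296 and 302 in TM180 arrays against 687, 799 and 618 in NTG arrays. Both passed with a less bright probe set. The brighter one of Lpl overlapped between groups and was not called (-0.15, adjusted p 0.523), and that of Dgat2 did not overlap and just missed (-0.84, adjusted p 0.0515). Acot1, an acyl-CoA thioesterase, was 1.38-fold lower. Of the fatty acid oxidation list none was called without TM180 array 4, NTG array 1 or NTG array 3, 1 without TM180 array 2 and 2 without NTG array 2, and leaving out another array gave up to 7.

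Mitochondrial genes outside fatty acid oxidation mostly had differences below 0 that did not pass the test. None of 20 citrate cycle genes, none of 33 complex I genes and none of 18 genes of ketone and branched-chain amino acid breakdown lay above 0, with medians of -0.20, -0.19 and -0.35, and 1 gene of each list was called: Dld, the dihydrolipoamide dehydrogenase shared by several dehydrogenase complexes (0.63 lower on the log2 scale), Ndufs4, a complex I subunit (0.44 lower) and Bckdhb, of branched-chain oxidation (0.59 lower). Over all genes 48.9% lay above 0. Hccs, which attaches heme to cytochrome c, had the smallest adjusted p among the named mitochondrial genes, with 367, 322, 361 and 514 in TM180 arrays, against 799, 716 and 887 in NTG arrays. It was 2.02-fold (95% interval 1.74 to 2.34, adjusted p 0.000661) lower. Glucose metabolism moved in both directions: Fbp2, muscle fructose bisphosphatase, fell to 82.1, 85.6, 68.4 and 68.9 in TM180 arrays against 213, 125 and 129 in NTG arrays, while Hk1, hexokinase 1, and Pfkp, a phosphofructokinase, rose 1.35-fold and 1.83-fold. Etfbkmt, which methylates the electron transfer flavoprotein, and Adhfe1, a hydroxyacid-oxoacid transhydrogenase, both outside the lists, were 2.07-fold and 1.94-fold lower. Of the 16 metabolic genes called in this and the preceding paragraph, Hccs was called in all 10 fits that left out 1 array. The fits missed 1 without TM175 array 1 (adjusted p 0.0501), 2 without TM175 array 2 (0.0608 to 0.0666), 2 without TM175 array 3 (0.0531 to 0.0664), 2 without TM180 array 1 (0.0559 to 0.0642), 10 without TM180 array 2 (0.0524 to 0.126), 5 without TM180 array 3 (0.0524 to 0.069), 13 without TM180 array 4 (0.0564 to 0.176), 11 without NTG array 1 (0.0508 to 0.111), 6 without NTG array 2 (0.0521 to 0.134) and 14 without NTG array 3 (0.053 to 0.219).

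Further enzymes and transporters of mitochondria and peroxisomes were found among the falls on no list, and these 6 were chosen after their values were seen. Hsdl2, a peroxisomal dehydrogenase-like protein, read 343, 276, 275 and 314 in TM180 arrays, against 564, 468 and 589 in NTG arrays. Gstk1, a glutathione transferase of both organelles, read 404, 244, 345 and 285 in TM180 arrays, against 689.7, 480.4 and 529.8 in NTG arrays. They fell by 0.82 and 0.84 on the log2 scale. Acsl6, an acyl-CoA synthetase, fell by 0.84, Pex11a, which divides peroxisomes, by 0.64, Acad11, an acyl-CoA dehydrogenase, by 0.58 and Slc25a13, the aspartate-glutamate carrier, by 0.52. The brighter probe set of Pex11a was not called (-0.26, adjusted p 0.32). Of the 6 organelle genes, Hsdl2 was called in all 10 fits that left out 1 array. The call was lost for 1 without TM175 array 2 (adjusted p 0.0614), 2 without TM175 array 3 (0.0628 to 0.0632), 2 without TM180 array 1 (0.0504 to 0.0903), 3 without TM180 array 2 (0.0576 to 0.095), 2 without TM180 array 3 (0.0541 to 0.0831), 5 without TM180 array 4 (0.0617 to 0.155), 4 without NTG array 1 (0.0687 to 0.125), 3 without NTG array 2 (0.0503 to 0.088) and 5 without NTG array 3 (0.0853 to 0.246).

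Of 7 MHC class II genes, which present antigen to helper T cells, 3 were called lower, none lay above 0 and the median was -0.55, the lowest of all lists. H2-Aa, whose promoter is shown above, read 205, 228, 169 and 209.6 in TM180 arrays, against 402, 649 and 416 in NTG arrays. NTG array 2 was the highest, and no TM180 array exceeded 228. H2-Ab1 and the invariant chain gene Cd74 were 1.90-fold and 2.04-fold lower. Of 26 MHC class I and interferon response genes limma called none (9 at an unadjusted p under 0.05) and none lay above 0. Iigp1, an interferon-induced GTPase, read 153, 98.1, 158 and 279 in TM180 arrays, against 337, 1466 and 477 in NTG arrays and Igtp, another of these GTPases, 131, 106, 154 and 121 in TM180 arrays, against 198, 1551 and 193 in NTG arrays, so NTG array 2 stood far above all other arrays. Irgm2, of the same family, read 63.7, 50.9, 65.2 and 65.7 in TM180 arrays, against 86.4, 666 and 69.7 in NTG arrays. The summed intensity of that list was 7737 to 8861 in TM180 and 8190 to 18176 in NTG arrays, and medians were -0.53 in single hearts and 0.01 in the pools. Of the MHC class II genes 1 was called without NTG array 2 or TM180 array 4.

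Markers of macrophages and lymphocytes were not called. They cover the cells that carry MHC class II only in part, and no list of dendritic cell markers was used. In limma none of 17 macrophage markers was called (1 at an unadjusted p under 0.05, median 0.03, sum 3951 to 4376 in TM180 and 3574 to 4186 in NTG arrays), and none of 11 lymphocyte markers (0 at an unadjusted p under 0.05, sum 546 to 596 in TM180 and 550 to 661 in NTG arrays). Il15, a cytokine that sustains lymphocytes, was lower, with 163, 94.3, 139 and 142 in TM180 arrays, against 324, 218 and 325 in NTG arrays. Retnla, a secreted resistin-like protein of alternatively activated macrophages and fat, read 171, 163, 149 and 120.1 in TM180 arrays, against 294, 297 and 252 in NTG arrays, 1.91-fold lower. Upk3b, a marker of mesothelium, the cell layer on the surface of the heart, fell to 73.9, 57.5, 59.0 and 67.1 in TM180 arrays against 105, 121 and 121 in NTG arrays, while Krt18, a keratin on the same list of 9, was 1.89-fold higher. Of the 7 called genes of this and the preceding paragraph, H2-Aa, Retnla, Upk3b and Krt18 were called in all 10 fits that left out 1 array. Calls missing were 1 without TM175 array 2 (adjusted p 0.0582), 1 without TM180 array 1 (0.0583), 1 without TM180 array 3 (0.0729), 3 without TM180 array 4 (0.0564 to 0.12), 1 without NTG array 1 (0.0535), 2 without NTG array 2 (0.0594 to 0.109) and 2 without NTG array 3 (0.053 to 0.0726).

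**Figure D5:**
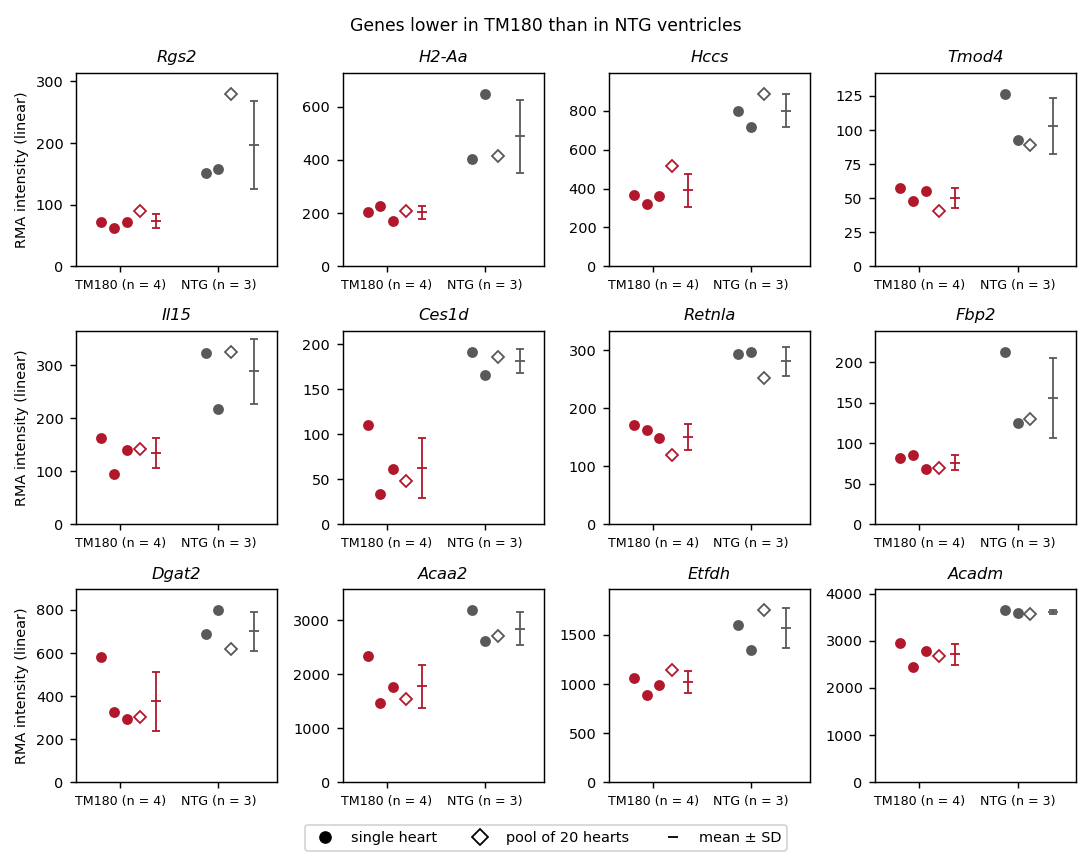
Linear intensity (y axis, from 0) of 12 genes called lower, in TM180 arrays (red, n = 4) and NTG arrays (grey, n = 3); circles are single hearts, open diamonds the pools of 20 hearts and dashes with bars the mean ± SD. In no panel do the groups overlap, which the rule for the largest falls required. For Rgs2 the NTG pool is the highest array at 280 and the TM180 pool, at 90.0, the highest of its group.

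Some regulators of signalling, transcription and membrane excitability were called too. Rgs2, which shortens signalling through Gq-coupled receptors and whose promoter is shown above, read 71.1, 62.3, 71.7 and 90.0 in TM180 arrays, against 152, 159 and 279.8 in NTG arrays. It was 2.52-fold (95% interval 2.06 to 3.08, adjusted p 0.000682) lower. In its other probe set the TM180 pool, at 219, exceeded both single NTG hearts, at 186 and 185, and the NTG pool was 599; within each extract type TM180 stayed lower. Pkia, an inhibitor of protein kinase A, read 38.6, 36.4, 37.0 and 49.5 in TM180 arrays, against 66.5, 58.5 and 98.0 in NTG arrays. Its brighter probe set overlapped between groups and was not called (-0.39, adjusted p 0.144). Klf15, a factor known to restrain hypertrophy and to promote lipid use in mice, fell to 190, 123, 149 and 132 in TM180 arrays against 239.7, 204 and 250.4 in NTG arrays, and Rxrg, a retinoid X receptor, was 1.55-fold lower. Nr1d1, a repressor of the circadian clock, rose 1.66-fold as the one called gene among 15 clock genes. Of 14 potassium and sodium channel genes 12 lay below 0. Kcnd2, a transient outward potassium channel, was called with a less bright probe set (81.0, 56.2, 70.7 and 103 in TM180 arrays, against 146, 109.6 and 134 in NTG arrays). Cacnb2, the beta subunit of the L-type calcium channel, was called although its groups overlapped, with 54.1, 46.9, 42.0 and 82.4 in TM180 arrays, against 76.7, 63.5 and 166 in NTG arrays; each pool was the highest array of its group. Abcc9, the sulfonylurea receptor of cardiac and vascular potassium channels, and Dsg2, desmoglein 2 of the desmosome, were 1.57-fold and 1.48-fold lower. Dsg2 has 3 brighter probe sets, none called, at -0.56, -0.67 and -0.20 (adjusted p 0.164, 0.185 and 0.546), and the brighter set of Kcnd2 lay at -0.73 (adjusted p 0.0946). Of the 9 called genes of this paragraph, Rgs2 and Pkia were called in all 10 fits that left out 1 array. The fits missed 1 without TM175 array 1 (adjusted p 0.0571), 3 without TM175 array 2 (0.0513 to 0.0614), 4 without TM175 array 3 (0.0513 to 0.0582), 1 without TM180 array 1 (0.0504), 6 without TM180 array 2 (0.0798 to 0.113), 6 without TM180 array 3 (0.0648 to 0.0979), 6 without TM180 array 4 (0.0565 to 0.177), 6 without NTG array 1 (0.0976 to 0.118), 5 without NTG array 2 (0.0508 to 0.129) and 5 without NTG array 3 (0.0727 to 0.267).

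Among the largest falls were genes of mixed function. Ces1d, a carboxylesterase with triglyceride hydrolase activity, had the largest of them, with 110.2, 33.6, 61.1 and 47.8 in TM180 arrays, against 192, 166 and 186 in NTG arrays. It was 3.15-fold (95% interval 1.99 to 4.98, adjusted p 0.0164) lower, and its single TM180 hearts spread widely, from 33.6 to 110. A brighter probe set of Ces1d had the same direction and no call (-1.17 ± 0.31, adjusted p 0.0841). Ttll1, a tubulin glutamylase subunit, read 347, 148, 171 and 239 in TM180 arrays, against 531, 456 and 591 in NTG arrays. Ano10, an anoctamin membrane protein, read 300.4, 182, 135 and 188 in TM180 arrays, against 539, 316 and 449 in NTG arrays. In all 3 genes TM180 array 1 was the highest of its group. Ivns1abp, Tnfaip8 and the water channel gene Aqp4 were 2.04-fold, 2.00-fold and 1.85-fold lower. For Ivns1abp this was a dim probe set, and its 2 brighter ones differed by -0.01 and -0.05 (adjusted p 0.979 and 0.94). A brighter set of Aqp4 was not called either (-0.35, adjusted p 0.238). Of the 6 genes of this paragraph, none was called in all 10 fits that left out 1 array. The call was lost for 2 without TM180 array 2 (adjusted p 0.0766), 1 without TM180 array 3 (0.0552), 5 without TM180 array 4 (0.0686 to 0.12), 4 without NTG array 1 (0.056 to 0.0977), 3 without NTG array 2 (0.0508 to 0.0622) and 6 without NTG array 3 (0.0533 to 0.196).

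Set directly against the milder line, 6 of 22626 probe sets were called between TM180 and TM175 (0.0265%). At an unadjusted p under 0.05 there were 5749, against 3236 between TM180 and NTG, and array weights gave 1922 calls, so the small number of calls does not show that the lines were alike. Tgfb2 read 64.8, 110.3, 96.7 and 150.4 in TM180 arrays, against 30.6, 46.1 and 35.2 in TM175 arrays, 1.49 ± 0.21 higher on the log2 scale (adjusted p 0.0476). Rrad, a small GTPase that restrains L-type calcium channels, read 533, 633, 551 and 531 in TM180 arrays, against 239.7, 215 and 326 in TM175 arrays, without overlap. St3gal2, a sialyltransferase, differed by 0.95, Mllt11 by 0.82 and the RNA helicase gene Ddx39a by 0.64. Alas2, the erythroid enzyme that starts heme synthesis, was lower in TM180 than in TM175 hearts, by -0.70. The number was 0 without TM175 array 1, TM175 array 2, TM180 array 2, TM180 array 3, NTG array 2, NTG array 3 or all 3 NTG arrays, 1 without TM175 array 3 or TM180 array 4, and 885 without NTG array 1, an array that enters this comparison only through the shared variance and the extract term. Both comparisons with NTG share their 3 control arrays, so their differences are given side by side only. In the 332 probe sets called higher in TM180 the median difference from NTG was 0.66 in TM180 and 0.30 in TM175 hearts, and 16 of them were called in TM175. In the 122 called lower it was -0.69 in TM180 and -0.61 in TM175 hearts, and 48 were called in TM175. Both sets were chosen by their TM180 difference. That choice alone favours smaller differences and fewer calls in TM175, so these medians do not measure how the lines compare. Between TM175 and NTG 195 probe sets were called in all (0.862%). For Myh7 the differences were 3.30 in TM180 and 3.67 in TM175, for Nppa 3.46 and 1.62, for Postn 2.36 and 1.65, and for H2-Aa -1.24 and -1.28.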

How the data were processed

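The deposited table holds 1 linear intensity per probe set and array, which the authors obtained with RMA per the submitters' processing notes (version not given in the sources used here). RMA includes background correction and quantile normalization, so a shift common to all genes is removed. RNA was labelled as biotinylated cRNA with an Affymetrix 3′ amplification kit, per the labels' protocols. Deposited intensities of 4 or more digits carry a point before the last 3. This was undone for 7844 of 226900 values in 1057 probe sets; for 228 probe sets, 225 of them tested and none called, the size could not be settled. Then log2 was taken, 64 control probe sets were set aside, and 22626 were tested: 20380 carried 1 gene symbol of GEO's platform annotation, 691 several and 1555 none, for 12393 genes.

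A linear model of genotype and extract type (single heart or pool) was fitted to all 10 arrays in limma 3.58.1 (R 4.3.3), with eBayes moderation. Tests were two-sided with Benjamini-Hochberg adjustment over 22626 probe sets, called at an adjusted p under 0.05. Differences are TM180 minus NTG on the log2 scale ± SE, folds are their antilogs with 95% intervals, and a mean ± SD is of unlogged intensities. No label says that single hearts are from separate litters, so p-values measure the spread between these extracts, and a pool was counted as 1 sample, although the labels do not say whether it shares hearts with the single extracts. The number of arrays limits the precision. The fit and the repair were tested on simulated data.

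The arrays compared, the 57 gene lists (43 of pathways, 14 of cell type markers, by a gene's brightest probe set) and the rule for named genes were chosen with earlier results of these data known. The rule took 8 heart genes and sex-linked genes; among called genes without overlap of arrays, the 25 that rose most and the 20 that fell most; up to 4 called genes per list; the 10 brightest called genes; the 8 largest uncalled differences without overlap; and the 6 called genes with the widest range over the single TM180 hearts, besides genes called between TM180 and TM175. Promoters and gene names came from RefSeq (GRCm38.p6); 202 of 260 genes called higher and 72 of 95 called lower in 1 direction matched a promoter. Counts were made in Python 3.11.15 (pandas 2.3.3, numpy 2.4.6) and figures with matplotlib 3.10.9. The alternatives were single hearts only, no extract type, replicate number as a block, only the arrays compared, array weights, repeated quantile normalization, median centring, probe sets above the median level, an intensity trend with robust fitting, no unsettled probe sets, means of a gene's probe sets, stricter thresholds and leaving out each array. Correlations of same-numbered arrays, taken on deviations from the fit of genotype and extract type, ran from -0.643 to 0.301. The fit itself constrains these deviations within each genotype and over the pools. The correlations therefore cannot decide whether replicate numbers pair the arrays.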

Additional observations from a re-analysis of the deposited data

Results flagged for a closer look

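In 9 of 134 named probe sets 1 of the 4 TM180 arrays stood apart by Dixon's ratio, the gap to the nearest array over the whole range being above the 95% critical value; chance gives about 1 in 20 such cases. TM180 heart 2 was the high array in Fn1 (ratio 0.954), Itga9 (0.938) and Casq1 (0.848). TM180 heart 1 was the low array in Col3a1 (0.886) and the high one in Dgat2 (0.866). TM180 heart 3 was high in Dkk3 (0.882) and Igfbp4 (0.878). TM180 heart 2 was low in Irgm2 (0.876), and the TM180 pool was high in Xist (0.918).

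The 6 probe sets called between TM180 and TM175 were flagged because they passed an adjusted p under 0.05 in the direct comparison of the lines. The differences, TM180 minus TM175 on the log2 scale, were 1.49 in Tgfb2, 1.15 in Rrad, 0.95 in St3gal2, 0.82 in Mllt11, 0.64 in Ddx39a and -0.70 in Alas2.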

How the results depend on the processing

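Against the 454 probe sets called between TM180 and NTG there were 114 with no extract type in the model, 44 in single hearts only, 1205 with array weights, 300 at a fold of at least 1.5 and 118 at an adjusted p under 0.01; leaving out 1 array gave 99 (without NTG array 3) to 484. It was 128 with TM180 array 4 left out, 250 with TM180 array 2 left out and 233 with NTG array 2 left out. Of the calls, 73.1% were higher in TM180; this was 59.3% with array weights, 83.6% when TM180 array 4 was left out and 55.8% when NTG array 2 was. With replicate number as a block and extract type in the model, 20 were called, and whether these numbers pair the arrays could not be decided. The 6 calls between TM180 and TM175 became 0 with no extract type, in single hearts only, with only the arrays of both lines, with the replicate block or at an adjusted p under 0.01 (5749 probe sets had an unadjusted p under 0.05 in limma), 2 with means of a gene's probe sets, 11 with repeated quantile normalization and 1922 with array weights; leaving out 1 array gave 0 to 885, with 885 when NTG array 1 was dropped, 11 for TM180 array 1, 1 each for TM180 array 4 and TM175 array 3, and 0 for each of the other 6. The cause was not tested. Of 1197 list medians under these alternatives 1158 moved by less than the spread between replicates. Of 2660 values of named genes 2013 kept direction and side of the threshold and 7 reversed. Nearly all others kept direction and lost the call. Of the 134 named probe sets this held for 91 in single hearts only and 104 with the replicate block. It held for 74 without NTG array 3 and 66 with no extract type. The reversals were in Eif2s3y (-0.05; 0.040 in single hearts, 0.11 with the replicate block, -0.18 to 0.22 without 1 array, among them 0.05 without NTG array 1) and Xist (0.28; -0.15 in single hearts, -0.21 with the replicate block, -0.17 to 0.51 without 1 array). The dimmest 25% of probe sets, with a geometric mean over the arrays of up to 29.6, gave 34 of the 454 calls, and the brightest 25% gave 227.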

Other observations

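Called genes outside the lists and not described above included further rises and falls, all chosen after their values were seen. Rtn4, a reticulon that shapes the endoplasmic reticulum, read 558, 762, 758 and 799.8 in TM180 arrays, against 384, 319.5 and 434 in NTG arrays. Lbp, the lipopolysaccharide-binding protein, read 62.9, 94.4, 84.0 and 68.9 in TM180 arrays, against 40.4, 45.9 and 34.5 in NTG arrays. Neither overlapped between groups, and both were called in all 10 fits that left out 1 array, as was Cald1, the actin-binding caldesmon (1.61-fold higher). Tfrc, the transferrin receptor, rose 1.86-fold, Ccdc80, a matrix-associated protein, 2.01-fold and Lmna, lamin A/C of the nuclear envelope, 1.44-fold; a dim probe set of Tfrc had the opposite sign (-0.36, adjusted p 0.247). Dimmer sets of Lmna were not called, at 0.43, 0.10 and 0.08 (limma adjusted p 0.362, 0.738 and 0.768). Members of TGF-beta and BMP signal transduction among the rises were Pmepa1 (1.52-fold), Smad1 (1.36-fold) and Skil (1.35-fold), which has a dim probe set at -0.04 (adjusted p 0.902). Of the 9 rises named here, Rtn4, Lbp and Cald1 were called in all 10 fits that left out 1 array. Calls missing were 1 without TM175 array 3 (adjusted p 0.0685), 1 without TM180 array 1 (0.0794), 3 without TM180 array 2 (0.0511 to 0.144), 2 without TM180 array 3 (0.058 to 0.085), 5 without TM180 array 4 (0.0564 to 0.131), 3 without NTG array 1 (0.056 to 0.0785), 5 without NTG array 2 (0.0613 to 0.15) and 5 without NTG array 3 (0.078 to 0.168).

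Among the falls, Ift81, a protein of ciliary transport, read 415, 312, 324 and 341 in TM180 arrays, against 625, 572 and 681 in NTG arrays. Rpl3l, a ribosomal protein paralog of striated muscle, read 812, 543, 678 and 513 in TM180 arrays, against 1076, 1008 and 926 in NTG arrays. Ghr, the growth hormone receptor, read 155, 125, 126 and 177 in TM180 arrays, against 230.4, 159 and 318 in NTG arrays, with overlap between groups, and Cish, which restrains cytokine receptor signalling, read 244, 242, 203 and 237 in TM180 arrays, against 422, 326 and 432 in NTG arrays. Grb14, an adaptor that inhibits the insulin receptor, was 1.59-fold lower, and Creb1, the cyclic AMP response factor, was 1.59-fold lower with overlap. Other probe sets of Creb1 were not called, a brighter one at -0.10 and a dimmer one at 0.01 (adjusted p 0.789 and 0.984), nor was the brighter set of Ghr (-0.35, adjusted p 0.101). Of the 6 falls named here, Ift81 was called in all 10 fits that left out 1 array. The fits missed 1 without TM175 array 2 (adjusted p 0.0614), 1 without TM175 array 3 (0.0701), 2 without TM180 array 2 (0.0527 to 0.126), 1 without TM180 array 3 (0.0917), 5 without TM180 array 4 (0.0564 to 0.196), 2 without NTG array 1 (0.0751 to 0.134), 1 without NTG array 2 (0.0813) and 5 without NTG array 3 (0.0706 to 0.269).

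Enpp3, an ectonucleotidase chosen after its values were seen, read 24.5, 19.6, 2062 and 369 in TM180 arrays, against 22.0, 19.1 and 16.0 in NTG arrays. Another probe set read 109, 98.2, 2685 and 525 in TM180 arrays, against 99.3, 103 and 80.3 in NTG arrays, and a further one 25.4, 22.5, 651 and 196 in TM180 arrays, against 24.8, 26.0 and 27.6 in NTG arrays. TM180 heart 3 and the TM180 pool were high, as they were for Sln, Myl7 and Myl4 (whether that heart is in the pool is not stated in the labels), and the difference was called in none of the 3 sets (adjusted p 0.295, 0.348 and 0.371). In TM180 heart 3, 5 probe sets exceeded every other single heart by over 4-fold, those 3 of Enpp3 and 1 each of Sln and Myl4; in TM180 hearts 1 and 2 there were 0.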
